A study of Mus musculus with 4 samples.

Results

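The genes for ribosomal proteins were followed across thymus from wild-type and Camk2g-deficient mice, with and without the mutagen MNU. Rows of the deposited table were taken as members when their symbol began with Rpl, Rps or Rplp and a digit, or was Rpsa, for the cytosolic ribosome, and with Mrpl or Mrps and a digit for the mitochondrial ribosome. Kinase genes whose symbols begin with Rps6k were left out. This gave 164 of 10598 genes, of which 89 were cytosolic and 75 mitochondrial. The cytosolic symbols comprised 77 subunit proteins (46 of the large and 31 of the small subunit), 6 paralogs, 5 symbols of pseudogene form and Rps19bp1, which encodes a protein that binds RPS19 and is not itself a ribosomal protein. The mitochondrial symbols comprised 46 large-subunit and 29 small-subunit names. One of them, Mrps36, is now known as a component of the alpha-ketoglutarate dehydrogenase complex. All 164 members passed the filter on low values, averaging 10 or more across the libraries.

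Ribosomes translate mRNA into protein. The cytosolic ribosome joins a small subunit, which reads the message, to a large subunit, which forms the peptide bond, and nearly every one of its proteins is needed in equal number. Its mRNAs begin with a run of pyrimidines, the TOP motif, through which mTOR signalling and LARP1 govern their translation, and MYC raises ribosome production as cells grow. The mitochondrial ribosome is a separate machine whose proteins are all encoded in the nucleus and imported. It makes the few membrane subunits of the respiratory chain that mitochondrial DNA encodes. Developing thymocytes are sensitive to single ribosomal proteins: loss of Rpl22 in mice blocks alpha-beta T-cell development, and RPL5, RPL10 and RPL22 are altered in human T-cell leukaemia.

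Whole thymus of C57BL/6J mice had been sequenced in 4 groups, each of 1 library: wild type with vehicle, wild type with MNU, CAMKIIgamma-/- with vehicle and CAMKIIgamma-/- with MNU, all labelled 6 months. MNU had been given once, at 75 mg/kg into the peritoneum, to mice 4 to 5 weeks old. The design text calls the MNU condition malignant and asks how loss of CAMKIIγ held back T-cell lymphoma. The labels do not say whether a library came from 1 animal or a pool, nor what share of the wild-type MNU tissue was tumour. With 1 library per group no difference has a replicate check, and no p-value, standard error or counting interval is given. Comparisons that use the same library are not independent of each other.

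Values are the normalised counts of the deposited table, which summed to between 32911362 and 34836257 per library. Camk2g itself stood at 2749, 3173, 489 and 29.7 in wild type with vehicle, wild type with MNU, knockout with vehicle and knockout with MNU, and this order of libraries is kept for every set of 4 values. In the library labelled knockout with vehicle Camk2g was thus at 17.8% of wild type with vehicle and 16.5-fold above knockout with MNU, which goes in part against its label, and knockout with vehicle stands for the library so labelled throughout. The 14 thymocyte marker genes were all measured, none at 0, and summed to 507010, 242944, 361653 and 451038, with 13 of 14 lower in wild type with MNU than with vehicle and Ptcra higher (1288 and 5295). Fibroblast markers summed to 16520, 49644, 26673 and 14959 and macrophage markers to 19470, 36856, 31400 and 36374; the part of these cells in the results was not tested. The 13 measured thymic epithelial markers summed to 95398, 686, 98058 and 77285. In wild type with MNU 7 of them were below 10 and 1 of these was listed at 0. In such bulk samples, fewer cells of a type and less RNA per cell cannot be told apart. The knockout library with vehicle stood part of the way towards wild type with MNU in genes nearly private to the latter. For 41 non-member genes exceeding 1000 in that library, where they were over 20 times as high as in wild type with vehicle or in knockout with MNU, the excess in knockout with vehicle was a median of 15.4% of the excess in wild type with MNU, and the middle 90% of genes lay between 14% and 18.5%. Subtracting 15.4% of the wild-type MNU values from that library left Camk2g at 1.03 there, below the 29.7 of knockout with MNU. The source of this share was not tested. The main counts, medians and shares that rest on that library are given with this share subtracted as well.

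The sequence around the transcription start is shown for 6 cytosolic genes because a pyrimidine run at this place was more frequent in this family than in the mitochondrial one. RefSeq promoters (GRCm38.p6, 250 bases before to 50 after the start) were at hand for 57 of the 77 cytosolic subunit genes and 66 of the 75 mitochondrial genes. Rpl8, Rpl3, Rpl30, Rpl32, Mrpl13 and Mrpl54 had no entry. The longest unbroken run of C and T on the transcribed sense strand was measured in the 25 letters from 10 before to 15 after the annotated start. A run of at least 8 letters was present in 22 of 57 cytosolic genes (38.6%), in 5 of 66 mitochondrial genes (7.58%), in 11.6% of the 8313 measured genes with a promoter and in 11% of all 27025 genes with one. The other 35 cytosolic promoters had shorter runs, and the median longest run was 6 letters in cytosolic and 5 in mitochondrial genes. The 6 cytosolic genes with the longest runs among those with a single annotated start are printed from 40 bases before to 20 after it, with capitals for the run as far as it lies in the 25-letter window, so that a run may go on in lower case beyond it. They lie at chr7:109519155-109519214 (Rpl27a, plus strand), chr2:39005112-39005171 (Rpl35, minus), chr14:18270967-18271026 (Rpl15, minus), chr2:26910767-26910826 (Rpl7a, plus), chr9:120571477-120571536 (Rpl14, plus) and chr7:45128726-45128785 (Rpl13a, minus).
Rpl27a: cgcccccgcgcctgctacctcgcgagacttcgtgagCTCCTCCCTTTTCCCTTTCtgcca
Rpl35: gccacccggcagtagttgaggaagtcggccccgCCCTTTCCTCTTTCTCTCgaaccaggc
Rpl15: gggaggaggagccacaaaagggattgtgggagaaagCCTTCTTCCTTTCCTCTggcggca
Rpl7a: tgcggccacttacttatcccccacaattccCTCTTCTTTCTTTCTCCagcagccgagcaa
Rpl14: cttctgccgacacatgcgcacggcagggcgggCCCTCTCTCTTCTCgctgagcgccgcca
Rpl13a: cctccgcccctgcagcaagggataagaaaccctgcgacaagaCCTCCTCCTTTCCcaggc

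For contrast, the same window is shown for the 3 mitochondrial genes with the largest and the 3 with the smallest MNU difference in wild type, again among genes with 1 annotated start. They lie at chr2:127587386-127587445 (Mrps5, plus strand), chr1:42851193-42851252 (Mrps9, plus), chr19:4962266-4962325 (Mrpl11, plus), chr17:45686309-45686368 (Mrpl14, plus), chr3:87919504-87919563 (Mrpl24, plus) and chr16:92058296-92058355 (Mrps6, plus).
Mrps5: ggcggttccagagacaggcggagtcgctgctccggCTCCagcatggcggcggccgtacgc
Mrps9: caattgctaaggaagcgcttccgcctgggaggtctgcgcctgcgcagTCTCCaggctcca
Mrpl11: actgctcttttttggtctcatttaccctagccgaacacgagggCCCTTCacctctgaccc
Mrpl14: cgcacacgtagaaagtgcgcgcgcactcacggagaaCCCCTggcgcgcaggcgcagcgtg
Mrpl24: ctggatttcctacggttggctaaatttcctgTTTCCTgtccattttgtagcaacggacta
Mrps6: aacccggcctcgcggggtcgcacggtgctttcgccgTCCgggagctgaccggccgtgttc
The capitals mark the longest run in the same window. The cytosolic set was picked for long runs and the mitochondrial set was not, so run lengths are not to be compared between the sets. Other motifs were searched on both strands of the whole 300-base window by exact letters. The ETS-type letters CCGGAAG were in 42.1% of cytosolic and 36.4% of mitochondrial promoters, against 21.9% of those of measured genes. The YY1-type letters AAGATGGC were in 8.77% and 18.2%, against 5.64%. The MYC E-box CACGTG was in 10.5% and 7.58%, against 11.9% of measured genes. The letters TATAAA were in 10.5% and 7.58%, against 8.89%. A match describes letters, not a bound factor. Within the cytosolic genes, the 22 with a run of at least 8 had a median log2 MNU difference in wild type of 0.55, and the 35 with a shorter run one of 0.53.

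In wild type, the thymus with MNU held more transcript of every one of the 77 cytosolic subunit proteins than the thymus with vehicle. The 89 cytosolic members together took 3.45% of all normalised counts in wild type with vehicle, 4.85% in wild type with MNU, 3.89% in knockout with vehicle and 3.58% in knockout with MNU. Wild type with MNU was 1.40-fold above wild type with vehicle in this share, and the knockout libraries were 1.13-fold and 1.04-fold above it. With the share subtracted, knockout with vehicle was at 3.70%, 1.07-fold above wild type with vehicle. The 75 mitochondrial members took 0.269%, 0.298%, 0.272% and 0.261%, so wild type with MNU was highest here too, by 1.11-fold, and the third value was 0.267% with the share subtracted. The sum of cytosolic members was 12.8, 16.2, 14.3 and 13.7 times that of mitochondrial members.

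**Figure D1:**
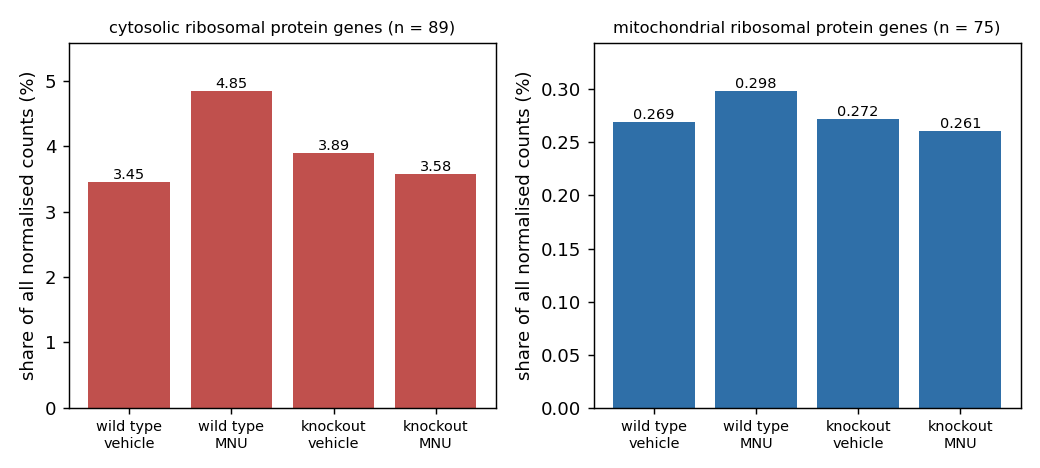
Share of all normalised counts (percent, axes from 0) held by the 89 cytosolic (left) and 75 mitochondrial (right) ribosomal protein genes in each of the 4 libraries, 1 bar per library with no replicates. The cytosolic share was 4.85% in wild type with MNU and between 3.45% and 3.89% elsewhere, while the mitochondrial share stayed between 0.261% and 0.298%.

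Differences between single genes were taken as log2(value + 10), where 10 is the pseudocount, and a gene was counted at 2-fold or more on that scale. With MNU against vehicle in wild type the cytosolic members had a median log2 difference of 0.53, a 1.44-fold difference, beside -0.01 over all 10587 genes tested. The values were tightly grouped: the middle 50% of the 77 subunit genes lay between 0.44 and 0.64, where the same range over all genes ran from -0.51 to 0.41. Above 0 were 88 of 89 cytosolic members, against 49.7% of all genes. At 1.5-fold or more higher were 27 of 89, against 17.2% of all genes. At 2-fold 2 members were higher (Rpl8 and Rpl3l) and 1 lower (Rps4y2), where 7.14% of all genes were higher and 14.2% lower. Small-subunit genes had a median of 0.56 (31 genes, 14 of them at least 1.5-fold higher) and large-subunit genes one of 0.48 (46 genes, 11 at least 1.5-fold higher).

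The mitochondrial members differed less and more unevenly. Their median was 0.22 (1.16-fold), 0.31 below the cytosolic median on the log2 scale, and 58 of 75 were above 0. At 1.5-fold 7 were higher and 3 lower, where 17.2% and 22.7% of all genes were. At 2-fold 0 were higher and 2 lower. Their middle 50% ran from 0.02 to 0.43, and their standard deviation over genes was 0.42, against 0.18 for the cytosolic subunit genes. Of the 89 cytosolic members 83 lay above the mitochondrial median, and 13 of the 75 mitochondrial members lay above the cytosolic median. Members of 1 ribosome are not replicates, so this contrast between the families is a description of 1 pair of libraries.

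**Figure D2:**
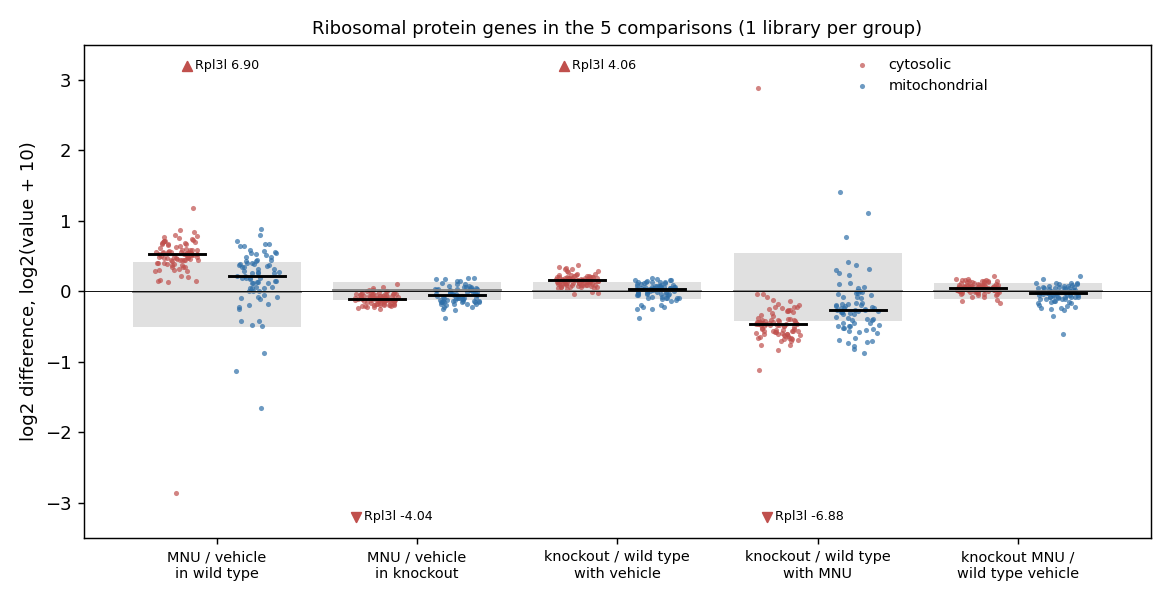
Log2 difference (log2(value + 10) scale) of each cytosolic (red) and mitochondrial (blue) member in 5 comparisons of single libraries, with black bars at the medians and grey boxes for the middle 50% of all genes. Triangles mark Rpl3l, which lies beyond the axis and carries its value. The points overlap, and the cytosolic median lies above the mitochondrial one in wild type with MNU against vehicle (0.53 and 0.22) and below it in knockout against wild type with MNU (-0.47 and -0.27).

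Among large-subunit proteins Rpl8, a core protein near the site of peptide bond formation, differed most. It stood at 29240, 66320, 36289 and 30682 normalised counts, 2.27-fold higher with MNU in wild type. Wild type with MNU was far above the other 3 libraries, which lay within 1.24-fold of wild type with vehicle. Rpl12, at the base of the stalk that recruits elongation factors, stood at 12020, 22039, 15068 and 13912, a log2 difference of 0.87. Rpl30 stood at 9581, 17234, 10967 and 9614, and Rpl32 at 12793, 22356, 14871 and 13194. Each of these genes had its highest value in wild type with MNU and its next in knockout with vehicle. That order, with wild type with MNU first and knockout with vehicle second, held for 72 of the 77 cytosolic subunit genes, for 29 of the 75 mitochondrial genes and for 22.4% of all genes. With the share subtracted from knockout with vehicle it held for 48 of 77, 11 of 75 and 8.96%.

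The stalk itself consists of P0, P1 and P2, acidic proteins that call in the GTPase factors. Rplp0 stood at 40468, 67590, 45935 and 41751. Rplp1 stood at 22386, 28457, 23446 and 25096 and Rplp2 at 7603, 10582, 8209 and 7751. Their log2 MNU differences in wild type were 0.74, 0.35 and 0.48, so the 3 stalk genes spanned much of the family's range.

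Large-subunit proteins that hold MDM2 in check and so raise p53 when ribosome assembly fails were also higher. Rpl5 stood at 21499, 31036, 24115 and 21993, and Rpl11, its partner in the 5S particle, at 17051, 23317, 16619 and 15249. Wild type with MNU was highest for both, and Rpl11 was lower in both knockout libraries than in either wild-type library. Rpl23 (log2 difference in wild type 0.52), Rps7 (0.53) and Rpl26 (0.35), further MDM2 or p53 partners, lay in the same range. Such an order, both knockout libraries below both wild-type libraries, was seen in 2 of 89 cytosolic members (Rpl11 and Rps27l) and in 17 of 75 mitochondrial members, beside 14.7% of all genes. The reverse order was seen in 0 and 2 members, beside 15.3% of all genes. With the share subtracted the counts were 9 of 89 and 29 of 75 for the first order, beside 22.2% of all genes, and 1 and 3 for the reverse, beside 18.8%.

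Of the 3 genes named above from human T-cell leukaemia, Rpl5 lay at the median of the family (0.53) and the others near its low end. Rpl10, which completes the large subunit and is mutated in some human T-cell leukaemias, stood at 15824, 17421, 17325 and 16930, a log2 difference of 0.14 in wild type. Rpl22, needed for alpha-beta thymocytes, stood at 7669, 8940, 8169 and 7415, a difference of 0.22. Rpl18 (0.16), a structural protein of the large subunit, was also at the low end. For Rpl10 knockout with MNU was nearly as high as wild type with MNU, with a log2 difference of -0.04.

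Small-subunit genes followed the family. Rps3, at the mRNA entry site and also linked to DNA repair, stood at 27549, 45563, 30959 and 28333. Rps6, the substrate of S6 kinase, stood at 27274, 40906, 30914 and 27474, and Rpsa, also known as the laminin receptor, at 30991, 49253, 36499 and 33997. Rps24 (log2 difference 0.78) and Rps14 (0.75) were among the largest differences of this subunit. Rps19, whose loss causes Diamond-Blackfan anaemia in humans, stood at 10406, 16846, 13441 and 11533, and had the largest positive difference of any cytosolic subunit gene between the vehicle libraries (0.37, or 0.30 with the share subtracted). Rpl38, required for translation of Hox mRNAs in mice, stood at 2495, 3954, 3034 and 2657. Rpl10a stood at 11645, 19076, 13341 and 12128 and Rpl13a, which in humans also silences inflammatory mRNAs, at 22859, 29868, 24708 and 23654. All of these genes were highest in wild type with MNU.

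Levels were compared between genes per length of coding sequence. The median of the 77 cytosolic subunit genes was 26046 normalised counts per coding kilobase in wild type with vehicle, 38727 with MNU, 29920 in knockout with vehicle and 26906 in knockout with MNU. The mitochondrial medians were 1783, 2027, 1757 and 1755, so cytosolic genes stood 14.6-fold, 19.1-fold, 17.0-fold and 15.3-fold above them. With the share subtracted the medians in knockout with vehicle were 28115 and 1720. The levels differed widely within the family. Over the mean of the 4 libraries Rpl41, whose coding sequence is only 75 bases so that most of its mRNA lies outside it, stood at 273657, Rplp1 at 72650, Rps29 at 68193 and Rpl39 at 57800. The lowest were Rpl36a at 13526, Rpl38 at 14453 and Rpl24 at 14480. Among mitochondrial genes Mrps25 was highest at 9635, followed by Mrpl33 at 5350, and Mrps31 (572), Mrpl47 (656) and Mrps22 (661) were lowest. Across the 77 cytosolic genes the MNU difference in wild type had a Spearman's rho of 0.15 with this level, and across the 75 mitochondrial genes one of -0.19. The level includes the wild-type MNU value, so it is not independent of the difference. With coding length the rho was 0.11 for cytosolic and 0.40 for mitochondrial genes. All points of these correlations share the same libraries.

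Among mitochondrial members, Mrpl13 had the largest difference in wild type. This large-subunit protein stood at 1349, 2496, 1482 and 1350, a 1.85-fold difference, and the 3 other libraries lay close together. Mrpl54 (874, 1526, 950 and 889), Mrps5 (1216, 1991, 1358 and 1411), Mrps9 (1484, 2371, 1570 and 1453) and Mrpl11 (908, 1448, 994 and 873) followed, with log2 differences of 0.80 to 0.67. Mrpl12, the stalk protein that also binds the mitochondrial RNA polymerase, stood at 1607, 2355, 1791 and 1577. In every one of these genes wild type with MNU was the highest library.

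Of the mitochondrial genes 17 of 75 were below 0. Mrps6, of the small subunit, stood at 903, 279, 846 and 757, which is 3.24-fold lower with MNU in wild type. Mrpl24 stood at 3056, 1388, 2618 and 2994 (2.20-fold lower), and Mrpl14 at 861, 462, 733 and 796 (log2 difference -0.88). In all 3 genes wild type with MNU was alone at the bottom. Mrpl53 (-0.50) and Mrpl34 (-0.48) also had negative differences. Wild type with MNU was the lowest library for 12 of 75 mitochondrial members and for 0 of 77 cytosolic subunit genes, against 43.3% of all genes.

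**Figure D3:**
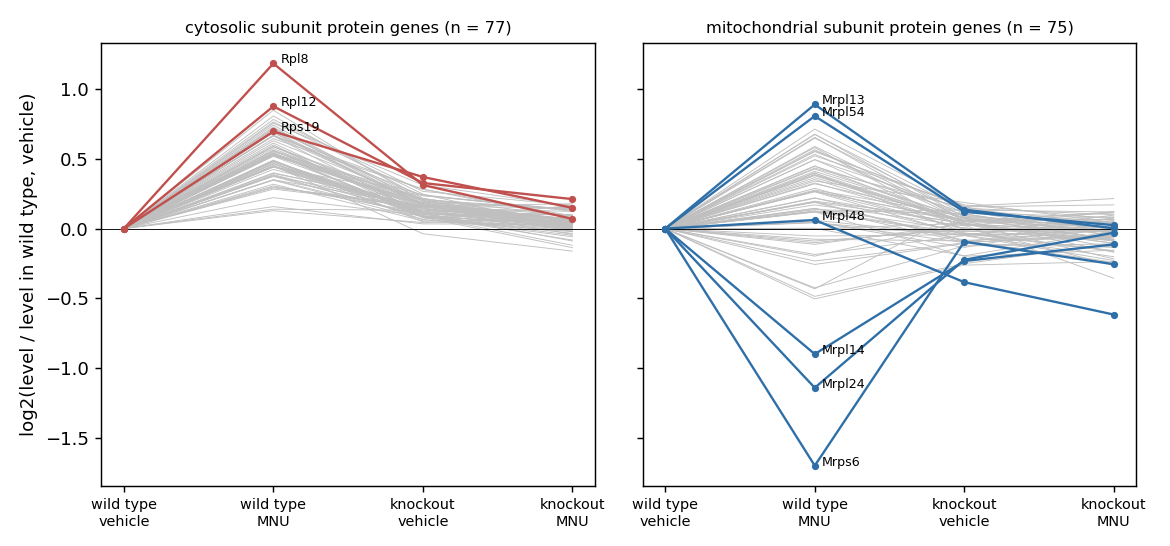
Level of each of the 77 cytosolic (left) and 75 mitochondrial (right) subunit genes in the 4 libraries relative to wild type with vehicle, on a log2 scale without pseudocount; grey lines join the values of 1 gene and coloured lines are named genes. All cytosolic lines lie above 0 in wild type with MNU, whereas the mitochondrial lines fan out from Mrpl13 at the top to Mrps6 at the bottom.

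The related proteins MRPS18A, MRPS18B and MRPS18C differed among themselves. Mrps18a stood at 840, 838, 862 and 781, Mrps18b at 810, 1034, 824 and 633 and Mrps18c at 669, 983, 746 and 753. Wild type with MNU was highest for the last 2 and within the range of the others for Mrps18a. Mrps12, of the decoding centre, stood at 833, 709, 776 and 878, lowest in wild type with MNU. Mrps36 stood at 623, 781, 634 and 585, Mrps35 at 829, 995, 804 and 863, Mrpl41 at 980, 862, 946 and 837 and Mrps34 at 1141, 1064, 1149 and 951. Of these, Mrps36 and Mrps35 were highest in wild type with MNU.

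Chromosomal position went with some of these differences. On chromosome 15 the 439 non-member genes had a median log2 MNU difference in wild type of 0.39, whereas on the other 19 chromosomes analysed the non-member medians lay between -0.10 and 0.15. The 4 cytosolic subunit genes on chromosome 15 were Rpl8 (1.18), Rpl30 (0.85), Rpl37 (0.72) and Rpl3 (0.57), with a median of 0.78, against 0.52 for the 73 elsewhere. The top mitochondrial gene, Mrpl13 (0.88), was the only one of its family on that chromosome. Measured against the median of all genes of its own chromosome, Rpl8 had an excess of 0.78, Rpl30 of 0.44, Rpl37 of 0.31, Rpl3 of 0.17 and Mrpl13 of 0.48. On that measure Rpl12 on chromosome 2 and Rpl32 on chromosome 6 exceeded Rpl8, at 0.87 each. Non-member genes of chromosome 15 had medians of 0.09 in knockout against wild type with vehicle and -0.08 in knockout with MNU against vehicle. Chromosomes are those of RefSeq GRCm38.p6, matched by symbol. The part of chromosomal position in the family's difference was not tested.

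**Figure D4:**
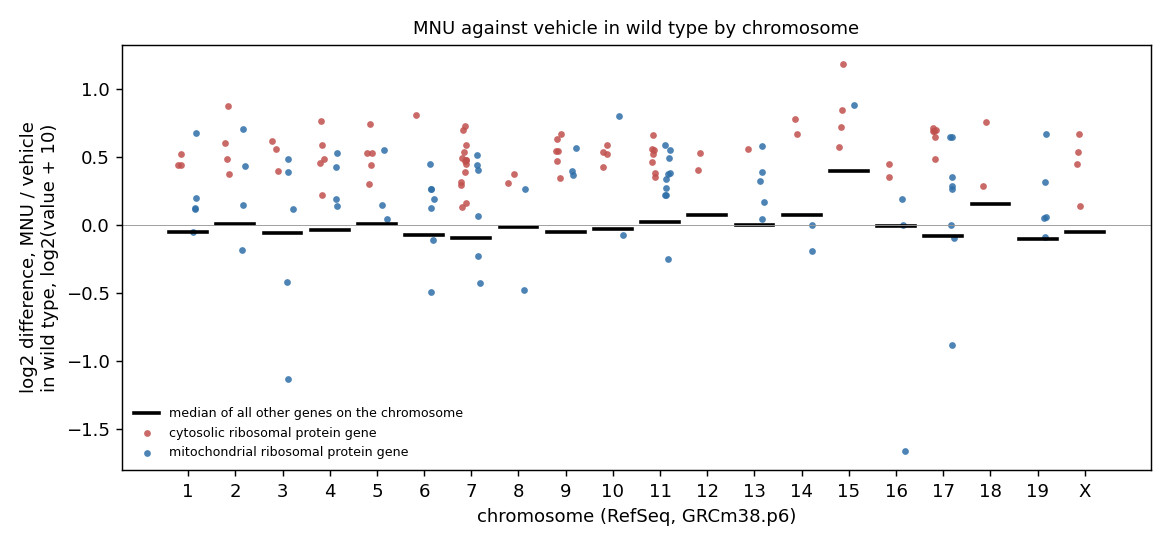
Log2 MNU difference in wild type (log2(value + 10) scale) of each cytosolic (red) and mitochondrial (blue) subunit gene by chromosome, with a black bar at the median of all other genes on that chromosome. The bar for chromosome 15 lies at 0.39 and the others between -0.10 and 0.15, and the cytosolic genes lie above the bar on each chromosome that carries them.

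In the knockout the same treatment went with small differences. With MNU against vehicle the cytosolic median was -0.11 and the mitochondrial one -0.05, beside 0.01 over all genes. Below 0 were 82 of 89 cytosolic and 48 of 75 mitochondrial members, against 47.1% of all genes. At 2-fold only Rpl3l was lower and 0 members were higher, where 2.95% and 0.331% of all genes were. Rpl8, 1.18-fold lower, was among the largest negative differences of cytosolic subunit genes. With the wild-type MNU share subtracted from the vehicle library the medians were -0.01 and 0.00, beside 0.04 over all genes. Below 0 were then 58 of 89 cytosolic and 37 of 75 mitochondrial members, against 38.9% of all genes, and 0 members were beyond 2-fold. Rpl3l could not pass, because the subtraction set it to 0 and its 6.16 in knockout with MNU is below the pseudocount. In the values as deposited, the mitochondrial gene with the largest difference was Mrps18b (-0.37).

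Between the vehicle libraries the knockout stood slightly above wild type for cytosolic genes. Their median was 0.16 (1.11-fold), beside 0.00 over all genes, and 86 of 89 were above 0, against 49.9% of all genes. The 75 mitochondrial members had a median of 0.03, with 43 above 0. At 2-fold Rpl3l alone was higher, where 2.59% of all genes were, and 0 members were lower, where 0.359% were. With the share subtracted the cytosolic median was 0.07, beside -0.03 over all genes, and the mitochondrial median was -0.04, on the other side of 0. Above 0 were then 78 of 89 cytosolic and 25 of 75 mitochondrial members, against 42.7% of all genes, and 0 members were beyond 2-fold. Rpl3l could not pass, because the subtraction set it to 0 and its 5.94 in wild type with vehicle is below the pseudocount. For 68 cytosolic subunit genes at least 1.25-fold higher in wild type with MNU, an excess was taken over the mean of wild type with vehicle and knockout with MNU. The excess in knockout with vehicle was a median of 21.1% of that in wild type with MNU (5th to 95th percentile 12.8% to 34.7%). These genes were chosen by their level in wild type with MNU, which also enters the divisor, and at small differences the percentage is unstable. The non-member genes behind the 15.4% were chosen by a far higher cut, so the percentages are not to be compared. Whether the family had an excess beyond the share was not tested.

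With MNU, the knockout stood below wild type for both families. The cytosolic median was -0.47 and the mitochondrial one -0.27, beside 0.01 over all genes. Below 0 were 88 of 89 cytosolic and 60 of 75 mitochondrial members, against 49.4% of all genes. At 1.5-fold or more lower were 24 of 89 and 9 of 75, against 17.1% of all genes. At 2-fold 2 cytosolic members were lower (Rpl3l, and Rpl8 at 2.16-fold) and Rps4y2 was higher, and Mrps6 (2.72-fold) and Mrpl24 (2.16-fold) were higher, where 7.37% of all genes were lower and 15% higher. Knockout with MNU and wild type with vehicle differed little: the medians were 0.04 and -0.03, beside 0.00 over all genes, 71 of 89 cytosolic and 25 of 75 mitochondrial members were above 0, against 50.6% of all genes, and 0 of 164 members were beyond 2-fold, where 2.67% of all genes were. The largest difference there was of Mrpl48, a large-subunit protein, at 823, 859, 631 and 537. Its higher knockout library was at 76.7% of the lower wild-type one. The other 16 mitochondrial genes with both knockout libraries below both wild-type ones had gaps that left the higher knockout value at 89.8% to 99.8% of the lower wild-type value.

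Among the paralogs, Rpl3l and Rps4y2 departed most from the family. Rpl3l, which takes the place of Rpl3 in heart and skeletal muscle, stood at 5.94, 1893, 256 and 6.16 normalised counts. It was near the floor of the table in wild type with vehicle and knockout with MNU, and its level in knockout with vehicle was an excess of 13.2% of that in wild type with MNU. Its parent Rpl3 stood at 20697, 30777, 22824 and 21646. Per coding length Rpl3l was at 0.0284% of Rpl3 in wild type with vehicle, 6.09% in wild type with MNU, 1.11% in knockout with vehicle and 0.0282% in knockout with MNU. Rpl3 thus remained the main form in every library. Of 22 striated muscle markers 4 were measured: Acta1 (1642, 1368, 1398 and 1766), Des (285, 216, 399 and 372), Mylpf (565, 244, 409 and 477) and Tnnt1 (146, 2452, 505 and 158). Their sum ranged from 2638 to 4280 and none was at 0. Tnnt1 was highest in the same library as Rpl3l and Acta1, Des and Mylpf were lowest there. The part of muscle cells in the Rpl3l level was not tested.

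Rps4y2, which RefSeq now lists as Rps4l and annotates as a transcribed pseudogene, stood at 386, 44.5, 379 and 394. It was 8.67-fold lower in wild type with MNU than with vehicle, the 1 cytosolic symbol below 0 in that comparison. Its parent Rps4x stood at 24455, 38776, 27702 and 25626, so the 2 symbols differed in opposite directions. Rpl22l1, a paralog whose mRNA RPL22 protein represses in mice, stood at 2081, 2925, 2375 and 2090. Per coding length it was at 28.5%, 34.3%, 30.5% and 29.6% of Rpl22. Its log2 difference in wild type, 0.49, was larger than that of Rpl22, 0.22.

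The other paralogs differed less. Rpl36al, which encodes nearly the same protein as Rpl36a, stood at 4436, 4902, 4609 and 4645, which per coding length was 114%, 92.9%, 108% and 123% of Rpl36a. It exceeded Rpl36a in 3 libraries and fell short of it in wild type with MNU. Rps27l, known as a p53-induced gene, stood at 1501, 1979, 1485 and 1456, or 17.7%, 17.8%, 15.4% and 15.5% of Rps27. Rpl7l1, a nucleolar relative of Rpl7, stood at 2687, 3096, 2788 and 2804, or 12.8%, 10.3%, 12.3% and 13% of Rpl7. Rpl10l and Rpl39l were not analysed here. The 5 symbols of pseudogene form followed their parents: Rpl34-ps1 held 0.976 to 0.984 of the Rpl34 value and Rps15a-ps4 held 0.656 to 0.679 of the Rps15a value. Rplp2-ps1 alone exceeded its parent, at 1.90 to 1.97 times the Rplp2 value. Reads can be shared between such near-identical copies, and their values are not separate measurements.

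**Figure D5:**
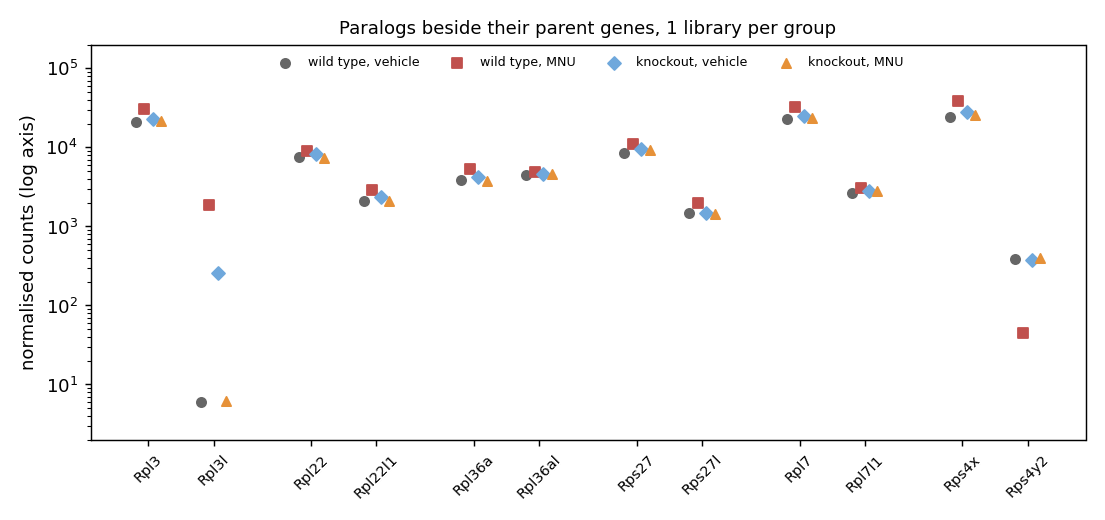
Normalised counts (log axis) of 6 paralogs, each to the right of its parent gene, with 1 symbol per library. Rpl3l spans 5.94 to 1893, highest in wild type with MNU, and Rps4y2 is lowest in that library, at 44.5.

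Other genes of ribosome production were counted from lists. Of the ribosomal proteins without an Rp name, Gnb2l1, the RACK1 scaffold (30779, 44475, 34607 and 33562), was highest in wild type with MNU, and Fau (10088, 11111, 10404 and 10969) differed little. The 6 mitoribosomal proteins without an Mrp name had a median log2 MNU difference of 0.01 in wild type, with 0 beyond 2-fold. Ribosome biogenesis and RNA polymerase I were represented by 95 measured genes with a median of 0.60, of which 11 reached 2-fold upwards and 1 downwards, where 7.14% and 14.2% of all genes did. Nop58, a core protein of the snoRNPs that methylate rRNA, stood at 3968, 10413, 4984 and 4008, and Polr1a, the largest subunit of RNA polymerase I, at 1377, 2858, 1697 and 1525. Bysl, a small-subunit assembly factor, stood at 7359, 2348, 4202 and 4739. Of 26 measured genes of mitochondrial translation and ribosome assembly 0 were beyond 2-fold, with a median of 0.20. Gfm1, the mitochondrial elongation factor G1, stood at 1469, 2591, 1521 and 1444, and Tfam, which packages mitochondrial DNA, at 2448, 4201, 2619 and 2422. Of 11 measured genes with Rps6k symbols or of the mTOR pathway, Rps6ka5 and Rptor were at least 2-fold higher and 0 lower, where 7.14% and 14.2% of all genes were. Above 0 were 8 and below 0 were 3. The lowest was Eif4ebp1 (832, 424, 775 and 528), whose log2 difference of -0.96 was just short of the 2-fold cut. Rps6kb1 and Rps6kb2 had log2 differences of 0.28 and -0.21, and Mtor one of 0.16. The 16 S phase genes, measured beside the family, summed to 95625, 145895, 92041 and 88764 and had a median of 0.77 in wild type. Their part in the ribosomal protein difference was not tested.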

How the data were processed

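A TruSeq kit and total RNA were used for the 4 thymus libraries, per the labels' protocols. Per the submitters' processing notes the tools included TopHat2 2.0.8b and edgeR, with mm9 as the build. How reads were counted, with which annotation and strand setting, and how values were normalised: not given in the sources used here. Per the file headers, the signal in the deposited table is normalised counts. It is not whole, so no count model was used. The members, lists, thresholds and alternatives were chosen with earlier results of these data known.

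Computed here with Python 3.11.15, numpy 2.4.6 and pandas 2.3.3 were log2(value + 10) differences for genes with a mean of at least 10, which removed 11 genes, ratios of the values themselves for single genes, medians, counts and shares. Printed folds of single genes carry no pseudocount. Genes named are the paralogs, the roles given in the text and the 5 largest and 5 smallest differences; only part of these are printed, and some others, such as Rpl37, were chosen after their values were seen. Coding lengths are those of APPRIS principal transcripts in GENCODE M21, without the stop codon, for 158 of 164 members. Scripts were tested on simulated data. The subtraction removed 15.4% of the wild-type MNU value from knockout with vehicle, rescaled the rest and set negative values to 0. Some members are not reported here by name. Depth in reads is unknown, so counting error cannot be given.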

Additional observations from a re-analysis of the deposited data

Results flagged for a closer look

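In the values as deposited, the MNU difference had opposite signs in the 2 genotypes for the medians of both families and for Rpl3l. With 1 library per group this was not tested. The cytosolic median was 0.53 in wild type and -0.11 in knockout, which puts wild type 0.63 higher on the log2 scale. The mitochondrial medians were 0.22 and -0.05, a gap of 0.27. For Rpl3l the log2 differences were 6.90 and -4.04, a gap of 10.94. Of the cytosolic members 82 of 89 were higher with MNU in wild type and lower in knockout, of the mitochondrial members 38 of 75, and of all genes 3294 of 10587. With the share subtracted these counts were 57, 25 and 1824. All 3 gaps use the knockout library with vehicle. With the wild-type MNU share subtracted from it, the knockout medians were -0.01 and 0.00. The mitochondrial one was just above 0, so its sign was no longer opposite to that in wild type. The same held for Rpl3l, which was set to 0 in knockout with vehicle, below its 6.16 in knockout with MNU. At 2-fold 0 of 89 cytosolic members passed. Rpl3l could not pass, because 6.16 is below the pseudocount.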

How the results depend on the processing

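Over 10 alternatives, 496 of 510 recomputed medians, counts past the fold, shares and paralog ratios stayed within the limits set, 0.1 on the log2 scale for medians and 1.5 times for the rest. Many of the 510 could not move. Shares and paralog ratios use neither the pseudocount nor the fold, and scaling a whole library cancels in them. Medians do not use the fold. The tally is therefore no measure of robustness. A median was read as having a direction only from 0.1 in size, and 0 of those turned. The limit is wide beside small medians. With the share subtracted the cytosolic median went from -0.11 to -0.01 for MNU in knockout. Between the vehicle libraries it went from 0.16 to 0.07, and both counted as within the limit. Below 0.1 in size 2 medians changed sign with the share subtracted: the mitochondrial median went from 0.03 to -0.04 between the vehicle libraries and from -0.05 to 0.00 for MNU in knockout. The 14 that moved were 13 counts of members past the fold and the level of Rpl3l against Rpl3 in knockout with vehicle, which was 0 with the share subtracted. At 1.5-fold in place of 2-fold, 28 cytosolic and 10 mitochondrial members passed for MNU in wild type, 25 and 12 for knockout against wild type with MNU, and 1 mitochondrial member for knockout with MNU against wild type with vehicle, in place of 3, 2, 3, 2 and 0. At 4-fold 0 mitochondrial members passed in the first and second of these. With subunit proteins proper only, 1 cytosolic gene (Rpl8) passed in each of those 2 comparisons and 0 in the 2 that use knockout with vehicle, where 0 also passed with the share subtracted. These follow from the thresholds, the members left out and the subtraction. Median-of-ratios and upper-quartile factors lay between 0.987 and 1.02. No paired analysis was possible because each group has 1 library and the replicate numbers were given in accession order; for the same reason no library could be left out of a group.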
